A study of Homo sapiens with 30 samples.

Results

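Gene expression was compared between A375 cultures kept for 8 h and for 1 h with the drug vehicle, dimethyl sulfoxide (DMSO). A375 is an established human melanoma line that carries an activating BRAF mutation. The 6 arrays of this comparison were chosen by their sample titles alone: 3 arrays of the DMSO group at 8 h and 3 arrays of the DMSO group at 1 h, of 30 arrays in the series. In the whole series, cultures received either DMSO at 0.065% or 650 nM MLN4924, an inhibitor of the NEDD8-activating enzyme, and RNA was taken after 1, 2, 4, 8 or 24 h, with 3 arrays in each of 10 groups. The cells of all groups grew in the same medium with fetal bovine serum, glutamine and antibiotics before the agents were added. None of the groups was kept without an added agent or sampled before it, so time with DMSO and time since the cultures were handled cannot be told apart. Whether a group's 3 arrays came from different cultures is not in the labels; p-values therefore reflect only how these arrays vary, and that variation may be technical. The labels also do not say whether the MLN4924 cultures also held DMSO.

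A vehicle time course shows how far transcript levels move in control cells while an experiment runs. Immediate early genes, such as FOS and EGR1, encode short-lived transcription factors whose transcripts turn over within the time of such an experiment. They are switched on by growth factors and by handling through the MAPK pathway and through serum response factor (SRF), which binds the CArG box. BRAF is the upstream kinase of that pathway, which feeds back on itself through the DUSP phosphatases and the SPRY proteins. Clock genes, replication genes and heat shock chaperones are other groups whose transcripts vary with time or culture conditions.

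The arrays were Affymetrix 3' expression arrays, and a value below called a signal is the deposited brightness of a gene's probe set after quantile normalization. Signals of different genes cannot be set against each other, since each probe set has its own brightness. Each number of arrays is 3 per group, which limits the precision. Changes are differences of the mean log2(signal + 32), 8 h minus 1 h, with their standard error (SE), which understates the change of dim genes. A gene was called at an adjusted p under 0.05, by limma with Benjamini-Hochberg adjustment over 19775 genes. The spread was estimated over all 10 groups.

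Arrays correlated at 0.987 to 0.988 within the 1 h group, 0.984 to 0.988 within the 8 h group and 0.983 to 0.988 between them. The ratio of the 3' to the 5' probe set of ACTB, a sign of RNA quality, ran from 1.25 to 1.33 at 1 h and from 1.14 to 1.31 at 8 h. The median deposited signal was 37.1 to 38 at 1 h and 39.4 to 44 at 8 h, with no overlap (exact two-sided permutation p = 0.1, the smallest that 3 against 3 arrays allow). The part of this shift in the gene changes was not tested beyond the scaling alternatives given beside them. The melanoma markers MIA, ERBB3 and SOX10 read 2045, 2103 and 916 at 1 h, and the pigment genes MLANA, PMEL and TYRP1 read 19.6, 22.6 and 13.3; these are readings of separate probe sets and rank no gene above another. Of 18 melanocyte lineage genes measured, 11 lay above the median gene and limma called none, with 4 higher and 1 lower at an unadjusted p under 0.05, where all 19775 genes held 1016 higher and 1328 lower. Their summed signal was 7107 to 7769 at 1 h and 7816 to 9135 at 8 h, without overlap, and its part in the results was not tested. No marker of fibroblasts, epithelia or blood and endothelium was called or had an unadjusted p under 0.05, and their summed signals overlapped between the groups. Above the median gene lay 2 of 10 fibroblast, 3 of 10 epithelial and 3 of 8 blood and endothelial markers. The epithelial marker KRT18 read 2385 at 1 h.

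Between 1 h and 8 h, 250 genes were called (1.26% of those tested). Of these, 96 were higher at 8 h (0.485%) and 154 were lower (0.779%). The changes were small: the called genes moved by a median of 0.43 on the log2 scale where higher and 0.41 where lower, and the median over all genes was 0.00. Changes of at least 2-fold on this scale were called for 5 genes upward, DDIT4, FOS, EGR1, FOSB and SPRY4-IT1, and for MIR181A2HG, a noncoding host gene of microRNAs, downward (-1.01). The calls were made on these same arrays, so a lack of overlap between the groups is no further support for them. The 3 arrays of 1 time lay wholly above or below those of the other for 249 of the 250 called genes and for 15.6% of all genes tested. The exception was SPRY4-IT1, a noncoding transcript within SPRY4, which read 15.7, 9.87 and 68.3 at 1 h and 75.6, 68.1 and 136 at 8 h and was not called without the first (0.185) or second (0.146) 1 h array or the first (0.0642) or the third (0.171) 8 h array. MIR181A2HG was called without the third 1 h array (0.0426) and not without any of the other 5 (0.0585 to 0.27). Most genes named below were taken only from called genes whose arrays do not overlap. That their groups stand apart therefore follows from the choice.

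**Figure D1:**
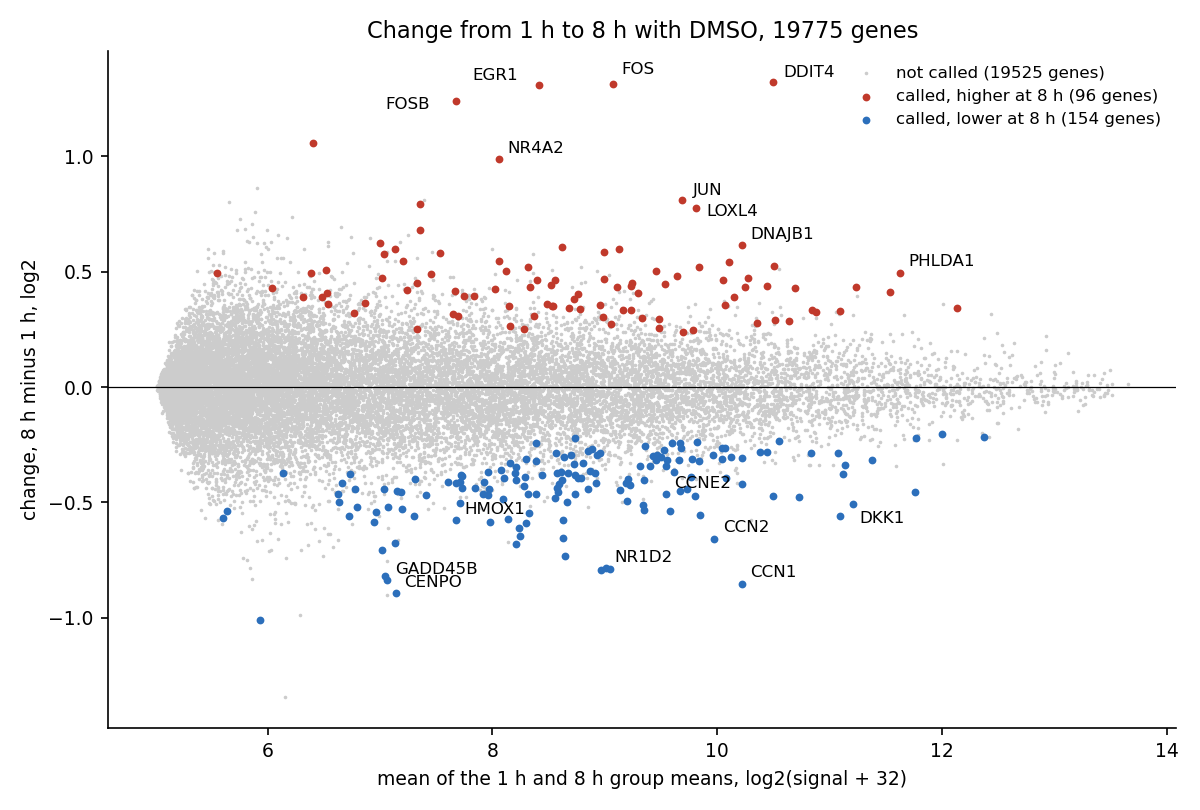
Each point is a gene, with the mean of its 1 h and 8 h group means of log2(signal + 32) on the horizontal axis and its log2 change, 8 h minus 1 h, on the vertical axis. The 96 genes called higher are red and the 154 called lower are blue; few changes pass 1 on the log2 scale, and DDIT4, FOS, EGR1 and FOSB stand highest.

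The count depended on single arrays and on the fit. Leaving out the third 1 h array left 100 calls and the first 112, while 151, 130 and 189 calls were left without the first, second and the third 8 h array and 236 without the second 1 h array. In all, 64 genes, 31 higher and 33 lower, were called without any 1 of the 6 arrays; where a gene whose change is given below is not among them, the loss of its call is given. Fitted alone, the 6 arrays gave 2 calls, EGR1 and the zinc finger gene ZNF235 (which was not called with all 30 arrays, adjusted p = 0.0577), with 1975 genes at an unadjusted p under 0.05. Centring each array on its median in place of quantile normalization gave 340 calls, of which 7.65% were higher rather than 38.4%. That centring moved the median of 12 housekeeping genes to -0.25, from -0.01, and the median of all genes to -0.06.

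Immediate early genes held the largest group of increases. Of 27 immediate early and AP-1 genes measured, 7 rose, 3 fell and 17 were not called. Over all genes tested, 0.485% were called higher and 0.779% lower. The gene lists were chosen with earlier results of these data known. The median change of this list was 0.25, beside 0.00 for all genes. The list kept a positive median, 0.12, when each array was centred on its median. FOS, which pairs with JUN in the AP-1 factor, read 362, 263 and 313 on the 1 h arrays and 860.3, 869.6 and 734 on the 8 h arrays. Every 8 h array lay above the highest 1 h array, and FOS rose by 1.31 ± 0.20 (SE, adjusted p = 0.000824). EGR1, a zinc finger factor of the same early response, had signals of 162, 192 and 201 at 1 h and 486, 548 and 484 at 8 h. The groups stood clear of each other, with a rise of 1.31 ± 0.15 (adjusted p = 2.78e-05), and EGR1 was also called in the fit of the 6 arrays alone (adjusted p = 0.0441). Its other probe sets above the median gene rose by 0.42 and 1.53.

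NR4A2, an orphan nuclear receptor induced within the same window, read 139.7, 168 and 164 at 1 h and 331, 369 and 328 at 8 h. The lowest 8 h array was well above the highest 1 h array, and the rise was 0.99 ± 0.12 (adjusted p = 5.29e-05). For JUN the signals were 652, 509 and 624 at 1 h against 1112, 1126 and 962 at 8 h. The groups did not overlap, and the rise of 0.81 ± 0.12 (adjusted p = 0.000714) was shared by its 3 other probe sets above the median gene, at 0.63 to 1.18. IER2, a small nuclear protein of the early response, rose from 1179 ± 23.6 to 1716 ± 133 (SD, n = 3), by 0.53 ± 0.08 (adjusted p = 0.0014, and 0.0815 with arrays centred on the median). These 5 genes were called without any 1 of the 6 arrays.

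The other 2 members called higher were less secure. FOSB, a partner of JUN like FOS, read 109, 68.4 and 134 at 1 h and 306, 312 and 236 at 8 h. The groups were apart, with a rise of 1.24 ± 0.30 (adjusted p = 0.0344), but the call was lost without each of the 6 arrays in turn, at adjusted p from 0.0521 to 0.127. The call of ZFP36L1, which binds AU-rich transcripts and speeds their decay, was lost in the same way (0.0746 to 0.17; change 0.39). Of the 3 members that fell, CCN1 is described with the SRF and YAP targets. MYC, a transcription factor of growth genes, changed by -0.38 ± 0.09 (adjusted p = 0.0344) and was not called without the first (0.0886) or the third (0.22) 1 h array or the second (0.195) or the third (0.124) 8 h array. MAFF, a small partner of AP-1 and NRF2 factors, changed by -0.26 ± 0.06 (adjusted p = 0.024), and was not called without the first (0.12) or the third (0.107) 1 h array or the first 8 h array (0.128). Other members of the list were not called: NR4A1 was 147 ± 38.7 at 1 h and 201 ± 6.4 at 8 h, JUNB 112 ± 26.7 and 162 ± 40.1, and FOSL1 551 ± 64.5 and 424 ± 58.4 (SD, n = 3).

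Among outputs and feedback inhibitors of the MAPK pathway, 3 of 22 measured genes rose and none fell, beside 0.485% and 0.779% of all genes. The median change was 0.05, and -0.07 with arrays centred on the median, where no member was called. DUSP1, a phosphatase that switches off MAP kinases, read 447, 338 and 371 at 1 h and 640.1, 561 and 572 at 8 h. All 8 h arrays lay higher, by 0.58 ± 0.10 (adjusted p = 0.00344, and 0.252 for the mean of its probe sets). SPRY4, an inhibitor of receptor signalling to RAS, read 464, 425 and 378 at 1 h and 776, 574 and 629 at 8 h, a rise of 0.60 ± 0.11 (adjusted p = 0.00534). The rise of PHLDA1, a MAPK-induced gene of the pleckstrin homology family, was from 2634 ± 21.6 to 3729 ± 172, or 0.50 ± 0.07 (adjusted p = 0.000714). The classical readouts of this pathway were not called: DUSP6 had 2896 ± 282 at 1 h and 3589 ± 28.9 at 8 h (adjusted p = 0.314), SPRY2 2224 ± 127 and 2207 ± 52.3 (0.986), and the cyclin gene CCND1 1399 ± 131 and 1212 ± 124 (0.411).

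Promoter sequences of an early gene and of a feedback gene are shown because both rose and because their CArG box and cyclic AMP response element (CRE) are the sites named for such genes. They are RefSeq sequences of build GRCh38.p14, from 250 bases before to 50 bases after the start of the gene, written 5′ to 3′ along the gene. EGR1 lies on the plus strand at chr5:138465229-138465528, and the capitals mark 2 CArG boxes that begin 105 and 83 bases before the start. DUSP1 lies on the minus strand at chr5:172771146-172771445, and the capitals mark a CRE 125 bases and an E-box 108 bases before the start, which do not overlap.
EGR1: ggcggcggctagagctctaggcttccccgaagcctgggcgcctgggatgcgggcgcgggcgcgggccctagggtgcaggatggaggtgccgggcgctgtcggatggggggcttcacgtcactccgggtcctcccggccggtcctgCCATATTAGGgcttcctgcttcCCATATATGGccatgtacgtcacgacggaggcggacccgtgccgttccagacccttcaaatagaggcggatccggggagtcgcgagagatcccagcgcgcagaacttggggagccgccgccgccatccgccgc
DUSP1: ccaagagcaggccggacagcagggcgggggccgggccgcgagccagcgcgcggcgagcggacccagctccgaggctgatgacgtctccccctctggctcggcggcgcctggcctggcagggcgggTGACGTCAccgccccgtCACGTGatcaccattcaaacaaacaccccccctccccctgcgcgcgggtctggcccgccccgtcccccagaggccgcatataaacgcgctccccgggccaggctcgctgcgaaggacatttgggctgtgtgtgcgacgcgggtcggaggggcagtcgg
A promoter was at hand for 15384 of the 19775 genes, 87 of the 96 higher and 129 of the 154 lower. Both strands were searched. The CArG box was found in 1.22% of all these promoters, in 2 of the genes called higher (EGR1 and PLAC8) and in none of those called lower. The CRE, TGACGTCA, was in 2.67% of all, 3.45% of the higher and 5.43% of the lower genes, and the E-box, CACGTG, in 8.9%, 8.05% and 13.2%. The CCAAT box was in 36.1% of all, 52.9% of the higher and 48.1% of the lower genes. The CHR element, TTTGAA, was in 11.9%, 19.5% and 8.53%, and the sterol element, TCACNCCAC, in 1.09%, 1.15% and 1.55%. Differences between these shares were not tested. The promoters of FOS, FOSB, JUN and IER2 held no CArG box within this window. NR4A2 and CCN1 had no promoter at hand and were not searched.

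Cytosolic heat shock chaperones also rose in part. Of 16 measured, 5 rose and none fell, beside 0.485% and 0.779% of all genes. The median was 0.13, which became -0.01 with arrays centred on the median, where 2 members were called. DNAJB1, the main DNAJ partner of heat-inducible HSP70, read 968, 919 and 909.6 at 1 h and 1509, 1490.1 and 1343 at 8 h. Its groups were far apart, with a rise of 0.62 ± 0.07 (adjusted p = 1.12e-05). DNAJB4, a related co-chaperone, went from 175, 211 and 182 to 286, 317 and 271. That is 0.55 ± 0.09 (adjusted p = 0.00112), again without overlap. DNAJA1, a constitutive co-chaperone, rose from 3971 ± 48.3 to 5046 ± 289 (0.34 ± 0.05, adjusted p = 0.0012), but by 0.07 with arrays centred on the median (adjusted p = 0.855).

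CHORDC1, a partner of HSP90, and BAG3, a co-chaperone of selective autophagy, were also called. CHORDC1 changed by 0.43 ± 0.08 (adjusted p = 0.00812) and lost its call without the first (0.0649) or the third (0.0592) 1 h array or the second 8 h array (0.0599). Without probe sets marked as open to cross-hybridisation its change was -0.098. BAG3 changed by 0.32 ± 0.07 (adjusted p = 0.0185) and lost its call without the first (0.0716) or the third (0.0883) 1 h array or the first (0.105) or second (0.071) 8 h array. Outside the list, HSPA2, an HSP70 family member, rose from 75.3 ± 8.88 to 128 ± 12.2 (0.58 ± 0.10, adjusted p = 0.00249), and DNAJA2 from 1017 ± 60.4 to 1382 ± 74.4 (0.43 ± 0.08, adjusted p = 0.00282, but 0.119 with arrays centred on the median and 0.0549 in the 15 DMSO arrays alone). These 2 genes were added to the text after their values were seen. The promoter of DNAJA1 is shown because it holds a heat shock element, here 3 blocks in the order GAANNTTCNNGAA or its complement, a motif added after the calls were known. It lies on the plus strand at chr9:33025023-33025322 of GRCh38.p14 (RefSeq), with the element in capitals, 3 bases after the start.
DNAJA1: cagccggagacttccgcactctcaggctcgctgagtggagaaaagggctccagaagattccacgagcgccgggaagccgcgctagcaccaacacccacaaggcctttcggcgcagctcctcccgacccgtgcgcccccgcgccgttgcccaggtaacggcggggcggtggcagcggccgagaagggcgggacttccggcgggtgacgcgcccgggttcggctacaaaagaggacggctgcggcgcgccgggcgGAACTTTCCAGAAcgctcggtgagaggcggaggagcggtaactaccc
The element was in 0.429% of all promoters and in 3 of the genes called higher, DNAJA1, CHORDC1 and ART3 (3.45%), and in 1 of those called lower, OR6A2 (0.775%). The promoters of DNAJB1, DNAJB4 and BAG3 held no match within this window.

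Chaperones of the endoplasmic reticulum and genes of the unfolded protein response, 22 measured, had a median change of 0.18 (0.01 with arrays centred on the median), and 18 of them had positive values. By limma none was called, with 8 higher and none lower at an unadjusted p under 0.05, beside 1016 and 1328 of all 19775 genes. HSPA5, the main chaperone of that compartment, was 4957 ± 302 at 1 h and 6196 ± 520 at 8 h (adjusted p = 0.0917).

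DDIT4, an inhibitor of mTORC1 induced by many stresses, had the largest increase of any gene called. It read 1047, 778 and 839 at 1 h and 2394, 1993 and 2401 at 8 h. No 8 h array came near the 1 h arrays, and the rise was 1.32 ± 0.09 (adjusted p = 7.56e-09). DDIT4 stands on the ATF4 list and on the list of hypoxia-inducible genes. Of 31 ATF4 and amino acid response genes, 2 rose and 1 fell (median -0.06), and with arrays centred on the median 1 rose and 5 fell (median -0.19). Over all genes tested, 0.485% were called higher and 0.779% lower without that centring. ASNS, asparagine synthetase, was 1476 ± 46.4 and 1420 ± 66.4 (adjusted p = 0.834). The second riser was CHAC1, which degrades glutathione, at 0.41 ± 0.08 (adjusted p = 0.014), not called without the first 1 h array (0.0728) or the first (0.0549) or second (0.0592) 8 h array. MTHFD2, a mitochondrial folate enzyme, changed by -0.20 ± 0.05 (adjusted p = 0.0258) and was lost without each of the 6 arrays in turn (0.0524 to 0.085). Of 22 hypoxia-inducible genes other than glycolytic enzymes, DDIT4 rose and ADM, the peptide hormone adrenomedullin, fell from 466 ± 26.8 to 347 ± 13.1, a change of -0.39 ± 0.07 (adjusted p = 0.00249). VEGFA was 514 ± 30.4 and 509 ± 45 (adjusted p = 0.985).

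In lipid synthesis, 1 gene of each list rose, beside 0.485% of all genes. INSIG1, which holds the SREBP factors in the endoplasmic reticulum and is itself their target, read 297, 283 and 277 at 1 h and 386, 452 and 528 at 8 h. The 8 h arrays were all higher but spread widely, with a rise of 0.61 ± 0.09 (adjusted p = 0.000714). The 2 other probe sets of INSIG1 above the median gene rose by 0.17 and 0.26. The other 18 of 19 cholesterol synthesis genes were not called, HMGCS1 among them at 174 ± 15.3 and 169 ± 16.7 (adjusted p = 0.951); the list's median was 0.08, and -0.05 with arrays centred on the median. SCD, the desaturase that makes oleate, was the only gene of 13 on the fatty acid list to be called, at 883 ± 24.4 and 1303 ± 108, a rise of 0.54 ± 0.08 (adjusted p = 0.000824, and 0.0598 with arrays centred on the median). IDH1, the cytosolic NADP isocitrate dehydrogenase, rose from 1017 ± 43.9 to 1425 ± 71.6 (0.47 ± 0.07, adjusted p = 0.000714, and 0.11 with that centring).

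Of 39 genes of DNA replication and the G1/S step, 8 fell and none rose, beside 0.779% and 0.485% of all genes. Values were negative for 37, with a median of -0.19 beside 0.00 for all genes. At an unadjusted p under 0.05 by limma, 21 were lower and none higher, beside 1328 and 1016 of all 19775 genes. With arrays centred on the median the list's median was -0.34 and 18 members were called lower. That centring also moved the median of the housekeeping genes to -0.25 and of the ribosomal protein genes to -0.30. With it, 314 of the 340 calls over all genes were lower. CCNE2, a cyclin E that drives entry into S phase, read 833, 879.6 and 819 at 1 h and 599, 636 and 576 at 8 h. The highest 8 h array lay below the lowest 1 h array, a change of -0.46 ± 0.07 (adjusted p = 0.000824). CCNE2 was the only 1 of the 8 to be called without any 1 of the 6 arrays, and without the third 1 h array 2 members were called. In the 15 DMSO arrays alone 4 were called lower.

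FEN1, the nuclease that trims Okazaki fragments, read 2585, 2416 and 2874 at 1 h and 1591, 1929 and 1800.4 at 8 h. The groups did not overlap, with a change of -0.56 ± 0.12 (adjusted p = 0.0133), lost without the third 1 h array (0.0944) or the first 8 h array (0.0829). POLA1, a subunit of the primase polymerase, changed by -0.50 ± 0.10 (adjusted p = 0.0147), lost without the first (0.062) or the third (0.107) 1 h array or the second (0.064) or the third (0.0526) 8 h array. CDC25A, the phosphatase that activates cyclin kinases, changed by -0.46 ± 0.10 (adjusted p = 0.0228), lost without the first (0.101) or the third (0.0917) 1 h array or the first (0.0858) or second (0.0886) 8 h array. The other 4 called members, E2F2, E2F7, GINS2 and RRM2, changed by -0.46, -0.39, -0.37 and -0.22. Their calls were lost without at least 2 of the 6 arrays, with highest adjusted p of 0.191, 0.079, 0.0986 and 0.112, and GINS2 changed by 0.28 without probe sets marked as open to cross-hybridisation. ZNF367, a zinc finger gene of no list, fell from 755 ± 26 to 516 ± 90.9 (-0.53 ± 0.10, adjusted p = 0.0039).

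Of 39 genes of G2 and mitosis measured, 1 rose and none fell, beside 0.485% and 0.779% of all genes. Values were positive for 30, with a median of 0.09. With arrays centred on the median it was -0.10, and none was called higher and 1 lower. The difference from the replication list was not tested. The call was ASPM, a spindle pole protein, at 1936, 1871 and 1956 at 1 h and 2539, 2429 and 2299 at 8 h. Its 8 h arrays were all above its 1 h arrays, by 0.33 ± 0.05 (adjusted p = 0.000714). The call was lost with that centring (0.593), for the mean of its probe sets (0.058) and without probe sets marked as open to cross-hybridisation (0.44), and its 2 other probe sets above the median gene changed by 0.05 and 0.19. CENPO, a centromere protein of no list, had the largest decrease among the 15 chosen by size. It read 142, 199 and 145 at 1 h and 62, 71.8 and 82 at 8 h, without overlap, a change of -0.89 ± 0.12 (adjusted p = 0.000256). Its other probe set above the median gene changed by 0.08, and the mean of its probe sets had an adjusted p of 0.0526.

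Targets of SRF with its cofactor MRTF and of YAP, which respond to cell shape and contact, were lower in 3 cases. Of 24 measured, 3 fell and none rose, beside 0.779% and 0.485% of all genes. Values were negative for 19, with a median of -0.11. With arrays centred on the median it was -0.31 with 6 called lower, where the housekeeping genes had a median of -0.25. CCN1, a secreted matrix protein and YAP target, read 1475, 1608 and 1622 at 1 h and 916, 799.7 and 849.7 at 8 h. The 2 sets of arrays were far apart, with a change of -0.85 ± 0.12 (adjusted p = 0.000389). CCN2, its relative, went from 1219.9, 1212 and 1267 to 831, 775 and 709.7, again without overlap (-0.66 ± 0.10, adjusted p = 0.00104). LATS2, a kinase that restrains YAP and is induced by it, fell from 625 ± 8.79 to 450.4 ± 23.2 (-0.45 ± 0.07, adjusted p = 0.00156, and 0.27 for the mean of its probe sets). ANKRD1 was 88.3 ± 18.6 and 55.3 ± 2.88 (adjusted p = 0.0681), and AMOTL2 1511 ± 85.1 and 1005 ± 106 (0.0973).

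**Figure D2:**
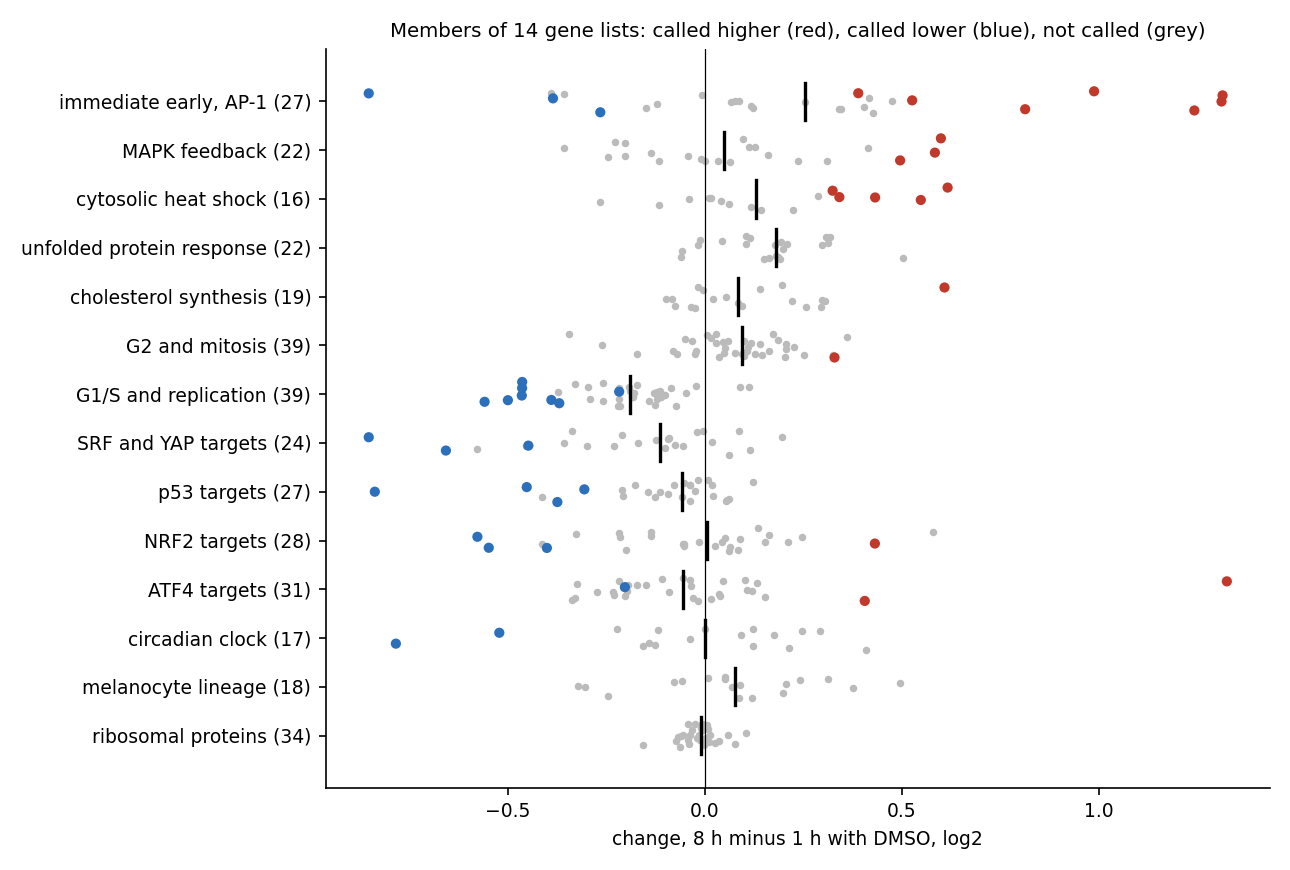
Each point is a measured member of 1 of 14 gene lists, placed by its log2 change, 8 h minus 1 h with DMSO, with members called higher in red, called lower in blue and the rest in grey. The number measured follows each list's name and the black bar is the list's median, which is 0.25 for the immediate early genes and -0.19 for the G1/S genes.

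Of 27 genes listed as p53 targets, 4 fell and none rose, beside 0.779% and 0.485% of all genes. The median was -0.06 (-0.17 with arrays centred on the median). Of the 4, only GADD45B was called without any 1 of the 6 arrays. GADD45B, a stress-induced growth regulator, read 132, 147 and 161 at 1 h and 58.8, 82.6 and 63.9 at 8 h. All 8 h arrays were lower, by a change of -0.84 ± 0.12 (adjusted p = 0.000445). Its 2 other probe sets above the median gene changed by -0.66 and -0.16. The call was lost for the mean of its probe sets (adjusted p = 0.0791) and without probe sets marked as open to cross-hybridisation (0.953). Its relative GADD45A changed by -0.45 ± 0.10 (adjusted p = 0.0209), lost without the first (0.103) or the third (0.0859) 1 h array or the first (0.0746) or second (0.0698) 8 h array. The other 2 called members, ZMAT3 (-0.37) and PLK2 (-0.31), lost their calls without at least 3 of the 6 arrays, with highest adjusted p of 0.0748 and 0.207. CDKN1A, which encodes the p21 inhibitor, was 395 ± 25.5 and 293 ± 71.7 and was not called (adjusted p = 0.153).

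Of 28 NRF2 targets, 3 fell and 1 rose, beside 0.779% and 0.485% of all genes. The median was 0.01 (-0.22 with arrays centred on the median). HMOX1, heme oxygenase, read 230.0, 209 and 213 at 1 h and 126, 138 and 142 at 8 h, a clear separation and a change of -0.58 ± 0.10 (adjusted p = 0.00192). SRXN1, which repairs peroxiredoxins, fell from 645 ± 15.2 to 481 ± 13.4 (-0.40 ± 0.07, adjusted p = 0.00534). KEAP1, the adaptor that marks NRF2 for destruction, changed by -0.55 ± 0.11 (adjusted p = 0.0129), lost without the first (0.0612) or the third (0.0909) 1 h array or the third 8 h array (0.0839). AKR1C1, an aldo-keto reductase, was called higher (0.43 ± 0.11, adjusted p = 0.0449) but has close paralogs that its probe set may share, and its call was lost without each array but the second 8 h one (0.101 to 0.167); without such probe sets its change was -0.025.

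Of 17 clock genes, 2 fell and none rose, beside 0.779% and 0.485% of all genes. Their median change was 0.00. NR1D2, a nuclear receptor that represses clock genes, read 557, 705 and 686 at 1 h and 346, 372 and 368 at 8 h. The groups were well apart, with a change of -0.78 ± 0.10 (adjusted p = 0.000149). TEF, a clock-controlled factor, was 101 ± 14.5 and 60.7 ± 9.4 (-0.52 ± 0.12, adjusted p = 0.0323), lost without the first (0.188) or the third (0.0723) 1 h array or the first (0.104) or second (0.136) 8 h array. PER2 was 146 ± 7.45 and 123 ± 35.5 (adjusted p = 0.691), DBP 40 ± 7.46 and 49.1 ± 6.83 (0.729) and BHLHE40 231 ± 26.7 and 209 ± 21.5 (0.758).

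Several single regulators of other lists fell. SLC30A1, the zinc exporter, read 706, 594 and 692 at 1 h and 388, 381 and 340.2 at 8 h. No 8 h array reached the 1 h range (-0.79 ± 0.12, adjusted p = 0.00112), while none of the other 9 genes of the metallothionein list was called. ID2, an inhibitor of basic helix-loop-helix factors and a BMP target, fell from 347 ± 10.4 to 212 ± 32 (-0.65 ± 0.12, adjusted p = 0.00611, and 0.186 for the mean of its probe sets), whereas ID1 was 2319 ± 132 and 2050 ± 131 (adjusted p = 0.565). DKK1, a secreted WNT inhibitor, read 2836, 2806 and 2711 at 1 h and 1891, 2005 and 1957 at 8 h, with tight groups and a change of -0.51 ± 0.05 (adjusted p = 1.12e-05).

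Few members of the remaining lists were called, and most of those calls rested on single arrays. Over all genes tested, 0.485% were called higher and 0.779% lower. Of 19 genes controlled by the glucose-sensing factor MondoA and by FOXO, ARRDC3 (0.50), TRIB1 (0.38) and CDKN1B (0.36) rose and TXNIP, an inhibitor of thioredoxin and of glucose uptake, fell (-0.42 ± 0.10, adjusted p = 0.0286), with a median of 0.00. None of the 4 calls survived leaving out the third 1 h array (0.0668, 0.12, 0.0859 and 0.149). The 2 other probe sets of TXNIP above the median gene changed by -0.15 and 0.02, and the mean of its probe sets was not called (0.507). Of 22 NF-kB targets and cytokines, the chemokine CXCL8 rose (0.34) and CXCL1 fell (-0.30), and neither call survived leaving out that array (0.0933 and 0.0905). JAG1, a NOTCH ligand (-0.51), TGIF1, a repressor in TGF-beta signalling (0.34), and SGK1, a kinase induced by glucocorticoids (0.29), also lost their calls without it (0.0905, 0.0512 and 0.111). Of 21 ribosome biogenesis genes controlled by MYC, NOP58 (-0.22), RRS1 (-0.42) and MYC fell, with a median of -0.09 (-0.27 with arrays centred on the median), and none was called without the first 1 h array (0.178, 0.151 and 0.0886).

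The remaining genes of the 15 largest increases and decreases belonged to no list. LOXL4, a lysyl oxidase that cross-links matrix, read 695, 617 and 656 at 1 h and 1211, 1086 and 1141 at 8 h. The groups were far apart (0.78 ± 0.07, adjusted p = 6.4e-07), but the mean of its probe sets was not called (0.476). TRIM46, a ubiquitin ligase family member that organises microtubules in neurons, rose from 92.1 ± 7.81 to 183 ± 7.24 (0.79 ± 0.14, adjusted p = 0.00255). SLC44A2, a choline transporter family member, rose from 82.8 ± 17 to 141 ± 10.9 (0.60 ± 0.10, adjusted p = 0.00205, and 0.0638 for the mean of its probe sets). IER5L changed by 0.68 and TOP6BL by 0.62, with the call lost without the second (0.0524) or the third (0.0905) 1 h array or the first 8 h array (0.0989) for IER5L, and without the third 1 h (0.0721) or second 8 h array (0.0527) for TOP6BL. Neither was called for the mean of its probe sets (0.232 and 0.102). The other probe set of IER5L above the median gene changed by -0.006.

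Among the decreases, ZNF697, a zinc finger gene, read 625, 584 and 674 at 1 h and 351, 369 and 326 at 8 h, without overlap (-0.79 ± 0.08, adjusted p = 8.35e-06). PTX3, a secreted pentraxin of innate immunity, fell from 344 ± 31.8 to 202 ± 21.9 (-0.68 ± 0.10, adjusted p = 0.000714). DLC1 fell from 464 ± 25 to 284 ± 21.1 (-0.65 ± 0.10, adjusted p = 0.0012). IGFBP4, a binding protein of insulin-like growth factors, changed by -0.73, lost without the first (0.0641) or the third (0.0876) 1 h array or the second 8 h array (0.0686). RUNX1-IT1, a noncoding transcript of the RUNX1 locus, changed by -0.61, lost without the third 1 h array (0.0531). SLC25A28, SPECC1L and HSD11B1L, at -0.82, -0.71 and -0.67, each lost their call without at least 3 of the 6 arrays, with highest adjusted p of 0.113, 0.238 and 0.0965.

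Of the 37 gene lists, 16 held no called gene, among them 34 ribosomal protein genes (median -0.01), 28 respiratory chain genes (0.00), 27 proteasome genes (-0.06) and 19 glycolysis genes (-0.01). At an unadjusted p under 0.05 by limma these 4 lists held 0, 2, 1 and 1 genes. The proteasome gene was lower and the others higher, beside 1328 lower and 1016 higher of all 19775 genes. The reference genes ACTB, GAPDH and TBP were at adjusted p of 0.52, 0.787 and 0.757. Of the 250 called genes, 59 were on a list and 191 on none.

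The other DMSO times show how the named genes reached their 8 h level. The changes at 2, 4, 8 and 24 h share the 1 h arrays, so they are given side by side only. At 2 h 45 genes were called against 1 h (0.228%) and at 4 h 67 (0.339%). The ACTB 3' to 5' ratio was 1.74, 1.68 and 1.26 on the 2 h arrays, against 1.24 to 1.37 at 4 h. With that ratio as a covariate 16 genes were called at 2 h, so the 2 h values are less sure. DDIT4 was already high at 2 h, with changes of 1.39, 1.43, 1.32 and 1.25 at 2, 4, 8 and 24 h. FOS was at 151 at 2 h, 518 at 4 h, 821 at 8 h and 424 at 24 h, and JUN at 439.9, 800.2, 1066 and 598, so both were highest at 8 h and lowest at 2 h. EGR1 was at 314, 351, 506 and 701, and NR4A2 at 194, 333, 343 and 621, with their highest means at 24 h. DNAJB1 was at 943 at 2 h, 1364 at 4 h, 1447 at 8 h and back at 917 at 24 h.

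LOXL4 was at 1089, 899, 1146 and 4166, its 24 h mean far above the others. Among genes that fell, CCN1 and CCN2 had their lowest means at 24 h, 563 and 345. NR1D2 stood at 581, 484, 362 and 561, lowest at 8 h. CCNE2 stood at 824, 743, 604 and 426, and the median change of the G1/S list was -0.05 at 2 h, -0.09 at 4 h and -0.44 at 24 h. The median of the G2 and mitosis list was -0.02, 0.10 and -0.24 at those times.

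**Figure D3:**
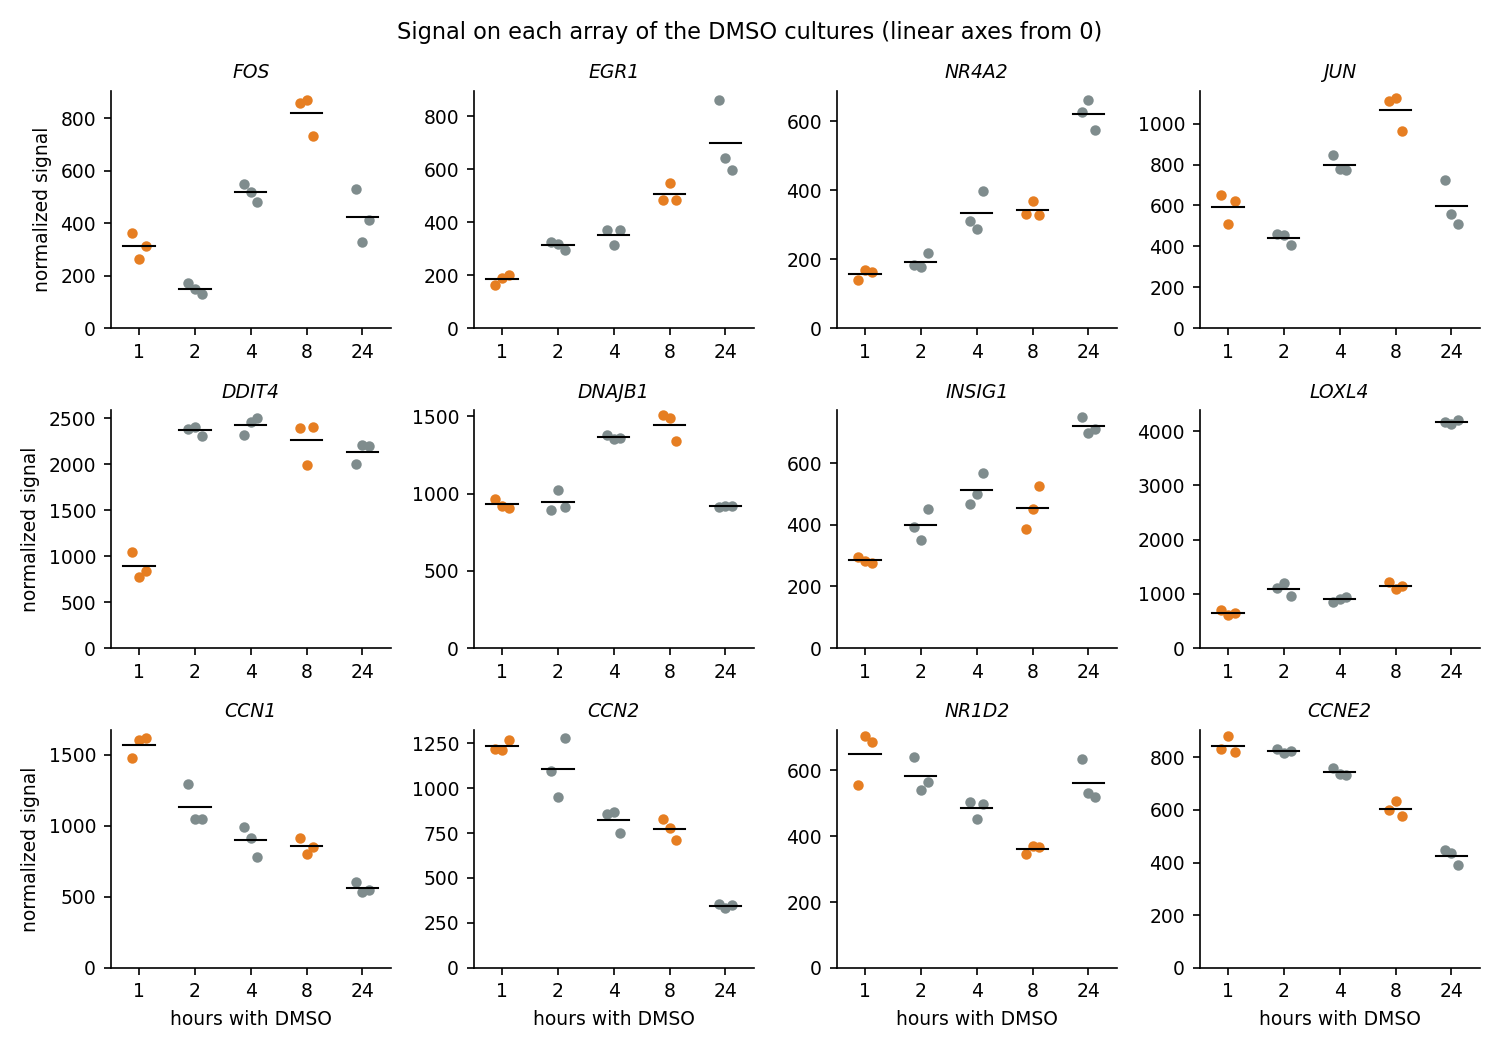
Each panel shows the normalized signal of a gene on every array of the DMSO cultures against hours with DMSO, on linear axes from 0, with bars at the mean of 3 arrays and the 1 h and 8 h arrays in orange. In all 12 genes the 8 h arrays lie wholly above or below the 1 h arrays, a condition of the rule by which they were named. FOS and JUN peak at 8 h, whereas LOXL4 reaches 4166 at 24 h.

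The same interval was also sampled on 6 other arrays, of cultures with MLN4924. There 2423 genes were called between 1 h and 8 h (12.3%), 1203 higher (6.08%) and 1220 lower (6.17%). Of the 96 genes that rose with DMSO, 35 rose with MLN4924, 20 fell and 41 were not called. Of the 154 that fell with DMSO, 48 fell, 30 rose and 76 were not called. The shared genes are 36.5% of the DMSO increases and 2.91% of the MLN4924 increases, and 31.2% and 3.93% of the decreases. Of the 64 genes called without any 1 of the 6 arrays, 19 of 31 that rose also rose with MLN4924 and 4 fell, and 16 of 33 that fell also fell and 6 rose.

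Some genes changed in the same direction under both agents. DDIT4 rose by 1.00 with MLN4924 (from 1215 to 2446), JUN by 0.83, SPRY4 by 0.52, DNAJB1 by 0.90, HSPA2 by 0.67 and SCD by 0.73, and NR1D2 changed by -0.64, SLC30A1 by -0.73 and PTX3 by -0.51, all called. For none of these 9 was the difference between the agents called, which does not show that the changes were alike. For JUN the change with MLN4924 minus that with DMSO was 0.02 ± 0.17 (adjusted p = 0.979), and for NR1D2 it was 0.14 ± 0.14 (0.69).

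Others moved apart. FOS fell with MLN4924, from 278 to 159 (-0.67, adjusted p = 0.0276), and NR4A2 from 201 to 95.3 (-0.88), where both rose with DMSO. LOXL4 fell with MLN4924 by 0.76, from 709 to 405, and PHLDA1 from 2837 to 1574. HMOX1 rose with MLN4924 from 335 to 2307 and SRXN1 from 655 to 2481, where both fell with DMSO. CCN1 was 1484 and 1707 with MLN4924 (adjusted p = 0.334) and CCN2 1381 and 1712 (0.0514). Over all genes the difference between the changes was called for 1429 (7.23%), and for 129 of the 250; that share is not independent, since the DMSO arrays that chose the 250 also enter the difference.

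**Figure D4:**
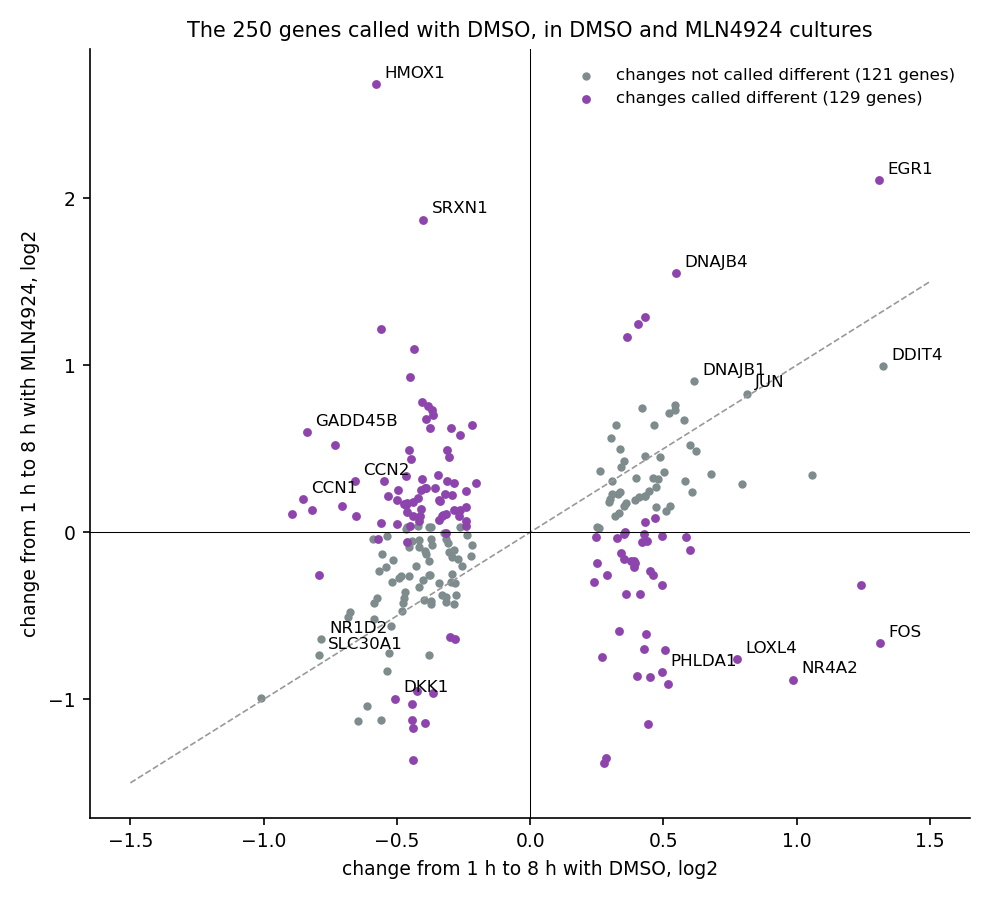
Each point is 1 of the 250 genes called with DMSO, placed by its log2 change from 1 h to 8 h with DMSO on the horizontal axis and with MLN4924 on the vertical axis, with the dashed line marking equal changes. The 129 genes whose changes were called different are purple; FOS, NR4A2 and LOXL4 rise with DMSO and fall with MLN4924, and HMOX1 does the opposite.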

How the data were processed

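The 30 arrays are human 3' expression arrays (Affymetrix HG-U133 Plus 2.0) of total RNA. Per the submitters' processing notes, the signals came from Affymetrix Expression Console. The deposited values are linear intensities, 1 per probe set, with a 2% trimmed mean of 150 on each array; of background correction and summarisation, nothing is stated in the sources used here. Of 54675 probe sets, 41097 carry 1 gene symbol, 1801 several and 11777 none in the platform annotation, which can be old. Signals were quantile normalized and taken as log2(signal + 32). Each gene was given its brightest probe set with 1 symbol, which left 19775 genes. limma 3.58.1 in R 4.3.3 fitted 1 mean per group to 30 arrays, with eBayes and Benjamini-Hochberg adjustment. No pair of arrays held identical values.

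The members and the 37 gene lists were chosen with earlier results of these data known. Of 818 listed genes, 736 were measured. Named genes were the 15 largest increases and the 15 largest decreases among called genes whose arrays do not overlap and whose higher mean is above the median of the gene table (a signal of 67.0), up to 4 called members of each list, and preset genes; clone and LOC symbols were passed over. Other names were chosen after their values were seen. Some preset genes are not reported here. On simulated data with 200 changed genes, 39 of 74 changes of 0.5, 61 of 63 of 1 and 63 of 63 of 2 (log2) were called, and 7 of 170 calls were false. The simulated noise was independent, had the fitted spread and held no shift of whole arrays. Its share of false calls therefore does not measure how sure the calls in the real data are. Alternatives were another scaling, pseudocount, filter, probe set rule and set of arrays, and each array left out in turn. Promoters came from RefSeq, and the heat shock element was added after the calls were known.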

Additional observations from a re-analysis of the deposited data

Results flagged for a closer look

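The change from 1 h to 8 h was set between the agents for each called gene named above, as the change with MLN4924 minus that with DMSO (log2, limma, adjusted p under 0.05 over all genes). The DMSO arrays that chose these genes also enter this difference, so it is not independent of the choice.

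Of the genes that rose with DMSO, the difference was negative for FOS (-1.98), NR4A2 (-1.87), FOSB (-1.56), LOXL4 (-1.54), PHLDA1 (-1.33), ARRDC3 (-1.21), SLC44A2 (-0.71), DUSP1 (-0.61), ZFP36L1 (-0.56), TRIB1 (-0.55), SGK1 (-0.54), TGIF1 (-0.47), BAG3 (-0.36) and CDKN1B (-0.36). It was positive for DNAJB4 (1.00), AKR1C1 (0.86), CHAC1 (0.84) and EGR1 (0.80).

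Of the genes that fell with DMSO, the difference was positive for HMOX1 (3.26), SRXN1 (2.27), GADD45B (1.44), GADD45A (1.38), IGFBP4 (1.25), MYC (1.14), ADM (1.07), CCN1 (1.05), CENPO (1.00), CCN2 (0.96), SLC25A28 (0.95), LATS2 (0.88), SPECC1L (0.86), KEAP1 (0.85), MAFF (0.85) and CDC25A (0.80). It was also positive for PLK2 (0.76), ZNF367 (0.75), DLC1 (0.75), E2F7 (0.65), FEN1 (0.61), POLA1 (0.55), ZNF697 (0.54), MTHFD2 (0.50) and CCNE2 (0.40). It was negative for DKK1 (-0.49).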

How the results depend on the processing

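Over all alternatives, the genes checked here, called or not, stayed on the same side of the threshold in 2147 cases. They lost the call in 416, gained it in 40 and reversed in 4. Genes that were not called, such as VEGFA, could change sign without being counted as a reversal. All 4 reversals came from leaving out probe sets whose suffix marks possible cross-hybridisation: AKR1C1 moved to -0.025, CHORDC1 to -0.098, GINS2 to 0.28 and YEATS2 to -0.17 (log2). The 250 calls with DMSO became 426 without genes of low signal (165 higher, 261 lower), 98 in the 15 DMSO arrays (41 and 57) and 2 in the 6 arrays alone (1 and 1). Centring arrays on their median gave 26 higher and 314 lower, with 178 genes shared. A replicate block gave 234. The labels do not say whether replicate numbers pair the samples. Deviations of same-numbered arrays correlated at 0.04, 0.16 and -0.00, and those of other pairs at -0.14 to 0.11. So few and weak correlations cannot decide it. Leaving out 1 array gave 100 to 236 calls, 41 to 96 higher and 59 to 140 lower. The 45 calls at 2 h became 14 with median centring, 29 with signals as deposited, 22 and 26 with pseudocounts of 1 and 16, 79 without low signal, 28 for the mean of probe sets, 17 without the marked probe sets, 14 in the DMSO arrays, 16 with the ACTB ratio as a covariate and 14 to 134 without 1 array. The 67 at 4 h became 34 with median centring, 35 for the mean of probe sets, 38 without the marked probe sets, 32 in the DMSO arrays and 33 to 49 without 1 array. limma fitted on only the arrays compared gave 0 calls at 2 h and 0 at 4 h (1601 and 1594 at an unadjusted p under 0.05), 1468 with MLN4924 and 868 for the difference. Without 1 array the full fit gave 1885 to 2046 calls with MLN4924 and 1101 to 1471 for the difference. Median centring moved the share of higher calls in the difference to 71.1% from 52.1%. Dim probe sets and 3 arrays per group limit small changes. Except where fewer genes or samples were used, the cause was not tested.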

Other observations

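A few genes that act on RNA moved in both directions. They were chosen after their values were seen and form no tested group. SRSF6, a serine- and arginine-rich splicing factor, read 2452, 2435 and 2635 at 1 h and 1874, 1988 and 1902 at 8 h. Its groups did not overlap, and it changed by -0.38 ± 0.06 (SE, adjusted p = 0.00112 by limma). HNRNPA1, a packaging protein of nuclear RNA, changed by -0.45 (0.00585). Its call was lost for the mean of its probe sets (0.0727) and without probe sets marked as open to cross-hybridisation (0.179). Its 2 other probe sets above the median gene changed by -0.26 and 0.05. RBM12 and RBM15, which bind RNA, changed by -0.48 and -0.55, and RBM15 was not called for the mean of its probe sets (0.304) or without probe sets marked as open to cross-hybridisation (0.178). SREK1, a splicing regulator, changed by -0.28, and SCAF8, which binds the tail of RNA polymerase, by -0.31. Neither was called in the 15 DMSO arrays alone (0.0555 and 0.0803). RSRP1, a protein rich in arginine and serine, rose by 0.48 (0.00105), and INTS6, a subunit of the Integrator complex that processes small nuclear RNA, by 0.46 (0.000817). All 8 were called without any 1 of the 6 arrays. With MLN4924 over the same interval, SRSF6 changed by -0.25, HNRNPA1 by -0.26, RBM12 by -0.42, SREK1 by -0.30 and SCAF8 by -0.41, all called, and RBM15 by -0.13, which was not (adjusted p = 0.523). RSRP1 and INTS6 both changed by 0.32, also called.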
